A study of Mus musculus with 11 samples.

Results

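The TNF receptor superfamily and its death receptors were examined in cultured neural stem cells (NSCs) through 10 of its genes, namely Tnfrsf10b, Fas, Tnfrsf1a, Tnfrsf1b, Tnfrsf12a, Tnfrsf19, Tnfrsf21, Ngfr, Cd40 and Ltbr. They were chosen by name, with earlier results of these data known, and belong to 53801 genes listed for every library. Of these genes, 27295 had a count above 0 in at least 1 library. The NSCs were primary cells from the hippocampus of mouse embryos, and 11 RNA libraries were sequenced. For 7 days the cells received either 1 µM 4HBP or EtOH, which served as the control. In proliferation medium, which held the growth factors EGF and bFGF at 20 ng/ml each, with 1% B27, there were 3 libraries with 4HBP and 3 controls. In differentiation medium, which held 2% B27 and neither growth factor, there were 3 libraries with 4HBP and 2 controls. The GEO labels call the compound 4-hydroxybenzoic acid, whereas the study calls it 4-hydroxybenzophenone, and its short name 4HBP is used here. No genotype or transgene is given in the labels, and nothing in them says that replicates came from separate animals or cultures, so p-values measure the spread between these samples.

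TNF receptor superfamily proteins are cell surface receptors with cysteine-rich extracellular repeats that bind trimeric ligands of the TNF family. A subset, the death receptors, carries an intracellular death domain that recruits adaptors such as FADD and TRADD and can start a caspase cascade, while the others recruit TRAF proteins and switch on the NFκB pathways. In neural cells the family is known both for death signals and for effects on growth, migration and myelination.

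Of the 10 genes, Fas, Tnfrsf10b (the mouse TRAIL receptor), Tnfrsf1a (TNF receptor 1), Tnfrsf21 (death receptor 6) and Ngfr (the p75 neurotrophin receptor) encode receptors with a death domain. Tnfrsf1b (TNF receptor 2), Cd40, Ltbr (the lymphotoxin beta receptor), Tnfrsf12a (the TWEAK receptor Fn14) and Tnfrsf19 (TROY) encode receptors without it. In the mouse genome build GRCm38, Ltbr (chr6:125306571-125313885, minus strand) and Tnfrsf1a (chr6:125349362-125362484, plus strand) are neighbours 35.5 kb apart. Tnfrsf10b lies at chr14:69767472-69784411 and Fas at chr19:34290666-34327772, both on the plus strand. Tnfrsf19 lies at chr14:60963875-61046490 on the minus strand, Tnfrsf12a at chr17:23675445-23677468 on the minus strand and Tnfrsf21 at chr17:43016555-43089189 on the plus strand.

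The sequences before the start sites of Ltbr, a receptor gene that rose with 4HBP, and of Fas, a death receptor gene that did not pass the test, are shown for comparison. Each is the RefSeq promoter window of build GRCm38.p6, limited to the 250 bases upstream of the annotated start and read 5′ to 3′ on the strand of the gene. The Ltbr window spans chr6:125313886-125314135 and the Fas window chr19:34290409-34290658. Capitals mark matches to the motifs searched on both strands, which did not overlap each other.
Ltbr: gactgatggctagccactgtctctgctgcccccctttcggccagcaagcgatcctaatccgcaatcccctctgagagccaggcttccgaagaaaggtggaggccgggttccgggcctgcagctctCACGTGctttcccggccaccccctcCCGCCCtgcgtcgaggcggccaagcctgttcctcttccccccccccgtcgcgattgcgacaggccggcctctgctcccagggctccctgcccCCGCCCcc
Fas: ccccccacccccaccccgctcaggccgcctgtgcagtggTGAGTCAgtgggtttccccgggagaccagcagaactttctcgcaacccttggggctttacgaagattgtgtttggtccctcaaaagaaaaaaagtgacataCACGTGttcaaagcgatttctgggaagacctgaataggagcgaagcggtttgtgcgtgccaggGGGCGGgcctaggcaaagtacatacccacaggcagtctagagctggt
The Ltbr window held an E-box (CACGTG) whose first base lies 125 bases before the start, and GC boxes (GGGCGG, here on the opposite strand) 100 and 8 bases before it. The Fas window held an AP-1 motif (TGANTCA) 211 bases, an E-box 110 bases and a GC box 47 bases before the start. Among all 32851 windows, 6.02% held an E-box, 32.7% a GC box and 6.75% an AP-1 motif. Of the 8 genes of the family with a window, Fas, Ltbr and Tnfrsf19 held an E-box, Fas held an AP-1 motif, and all but Tnfrsf1a held a GC box. The kappa-B consensus (7.25% of all windows), the p53 half-site consensus (7.13%) and the CCAAT-ATF composite TGATGCAA (0.791%) had no match in the windows of the 8 genes. No window was used for Tnfrsf10b and Cd40.

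The libraries held between 20822921 and 23438463 expected counts, and 3 counts, taken as the smallest detectable amount, corresponded to between 0.128 and 0.144 CPM (counts scaled to a common library total), which covers counting error only. The biological coefficient of variation was 0.1173 in proliferation medium and 0.03683 in differentiation medium. In proliferation medium, 4HBP replicate 3 stood apart from its group, with a mean chi-square per gene of 23.79 and 21.44 against replicates 1 and 2, which gave 5.341 against each other. The NSC markers (Nes, Sox2 and 8 others) were measured in all libraries, with a summed level between 7270 and 8641 CPM in proliferation medium and between 4181 and 4320 CPM in differentiation medium. Summed microglia and macrophage markers were between 2.70 and 6.86 CPM in all libraries, with 4 of 10 at or under 3 counts in every library, and the endothelial markers Cdh5 and Cldn5 were at 0 throughout. Within these bulk samples, fewer cells of a type and less RNA per cell cannot be told apart.

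Compared per gene length, Tnfrsf1a was the most abundant receptor transcript in every group and Tnfrsf1b and Cd40 were close to undetected. In proliferation controls, Tnfrsf1a had a mean level of 160.5 TPM (a level scaled for transcript length and depth), followed by Tnfrsf21 with 51.95 TPM, Ltbr with 29.52 TPM, Tnfrsf12a with 21.24 TPM, Tnfrsf19 with 14.61 TPM, Fas with 9.80 TPM and Tnfrsf10b with 3.51 TPM (n = 3). The ranges of neighbours in this order did not overlap, except those of Ltbr and Tnfrsf12a and, at the lower end, those of Ngfr, Cd40 and Tnfrsf1b. With 4HBP in the same medium, Tnfrsf10b (11.73 TPM) stood beside Fas (11.53 TPM), and its range overlapped those of Fas and of Tnfrsf19 (20.45 TPM). In differentiation controls the order began with Tnfrsf1a at 67.17 TPM and Tnfrsf12a at 43.47 TPM, and then came Tnfrsf21 at 37.43, Tnfrsf19 at 33.19, Ltbr at 30.02, Fas at 17.51 and Tnfrsf10b at 10.34 TPM (n = 2). With 4HBP in differentiation medium the order of these 7 genes was the same, and the ranges of Tnfrsf19 and Ltbr overlapped.

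**Figure D1:**
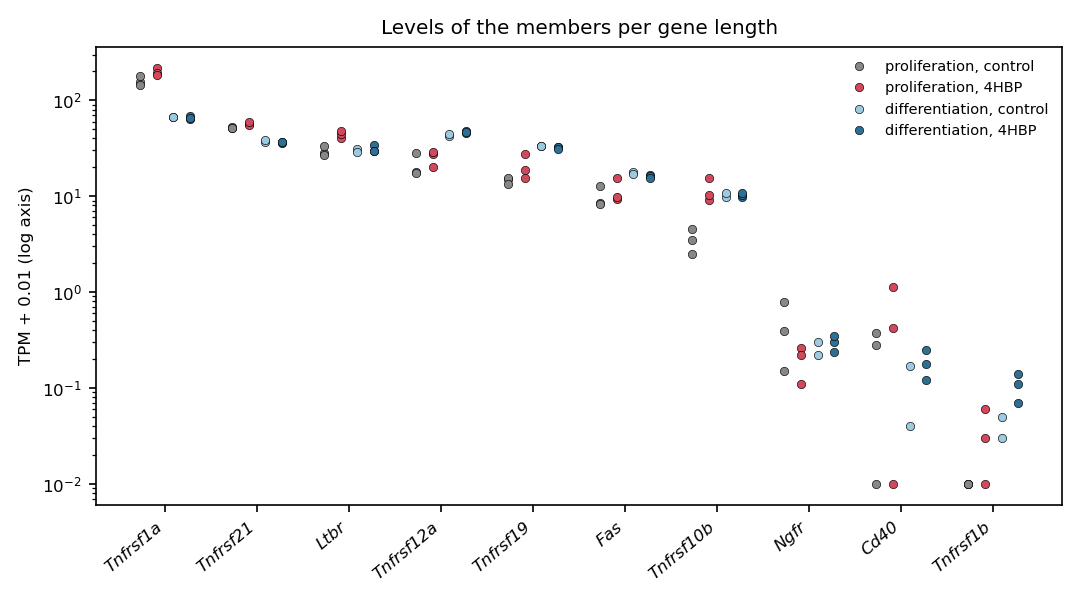
Level of each receptor gene in TPM plus 0.01 on a log axis, with a point for each of the 11 libraries and colours for the 4 groups. Tnfrsf1a was highest in all groups, Tnfrsf10b was lowest among the 7 well-measured genes in proliferation controls (3.51 TPM), and Ngfr, Cd40 and Tnfrsf1b sat far below them.

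Tnfrsf1b, Cd40 and Ngfr rested on few reads. Tnfrsf1b, which encodes the TNF receptor that lacks a death domain, had 0 counts in each proliferation control and 1, 3 and 0 counts with 4HBP. It had 1 and 2 counts in differentiation controls and 3, 5 and 6 with 4HBP. Cd40, a receptor of antigen-presenting cells, had 0, 3.94 and 4 counts in proliferation controls, 0, 4 and 8 with 4HBP, 6.01 and 1 in differentiation controls and 9.02, 4.2 and 4.08 with 4HBP. Both fell below the filter on low counts in each comparison and were not tested, so a difference between their groups was not detectable at this depth. Ngfr passed the filter with 19, 7 and 40 counts in proliferation controls and 13, 11 and 5 with 4HBP, and with 9 to 14 counts in differentiation medium.

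The comparison of 4HBP with control in proliferation medium asks which receptor genes respond to the compound in dividing NSCs. Tnfrsf10b and Ltbr rose, no member fell, and the other 6 tested did not pass the test. Thus 2 of 8 tested members were called at a Benjamini-Hochberg adjusted p under 0.05 in edgeR's quasi-likelihood test, where 7.43% of all 14449 genes tested were called and 3.74% were called higher. The median log2 fold change of the 8 was 0.22, against 0.00 over all genes tested.

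Tnfrsf10b measured 7.71, 5.82 and 10.7 TMM-normalised CPM (scaled by the TMM method of edgeR) in the controls and 21.5, 23.7 and 33.1 CPM with 4HBP. All 4HBP libraries were above all controls, with 4HBP replicate 3 the highest. The mean rose from 8.07 ± 2.44 to 26.1 ± 6.17 CPM (SD, n = 3), a 3.23-fold change (log2 fold change 1.69, SE 0.23, 95% interval 1.18 to 2.21, edgeR adjusted p = 0.00656). Without 4HBP replicate 3 the log2 fold change was 1.49 (edgeR adjusted p = 0.00356). Without control replicate 1 it was 1.66 with an edgeR adjusted p of 0.0501, a value just past the threshold in a fit that called 107 of all genes instead of 1074. With limma on all 6 libraries it was 1.62 (limma adjusted p = 0.127).

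Ltbr, which binds lymphotoxin and LIGHT and signals through the alternative NFκB pathway, measured 41.1, 38.8 and 49.0 CPM in the controls and 59.6, 63.8 and 65.3 CPM with 4HBP. These groups did not overlap either. The change was 1.46-fold (log2 fold change 0.55, SE 0.10, 95% interval 0.33 to 0.77, edgeR adjusted p = 0.0145), and without 4HBP replicate 3 it was 0.53 on the log2 scale (edgeR adjusted p = 0.014). The call was lost without control replicate 1 (0.52, edgeR adjusted p = 0.0805), control replicate 2 (0.48, 0.0739) or 4HBP replicate 2 (0.54, 0.0519), with a similar size of change.

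**Figure D2:**
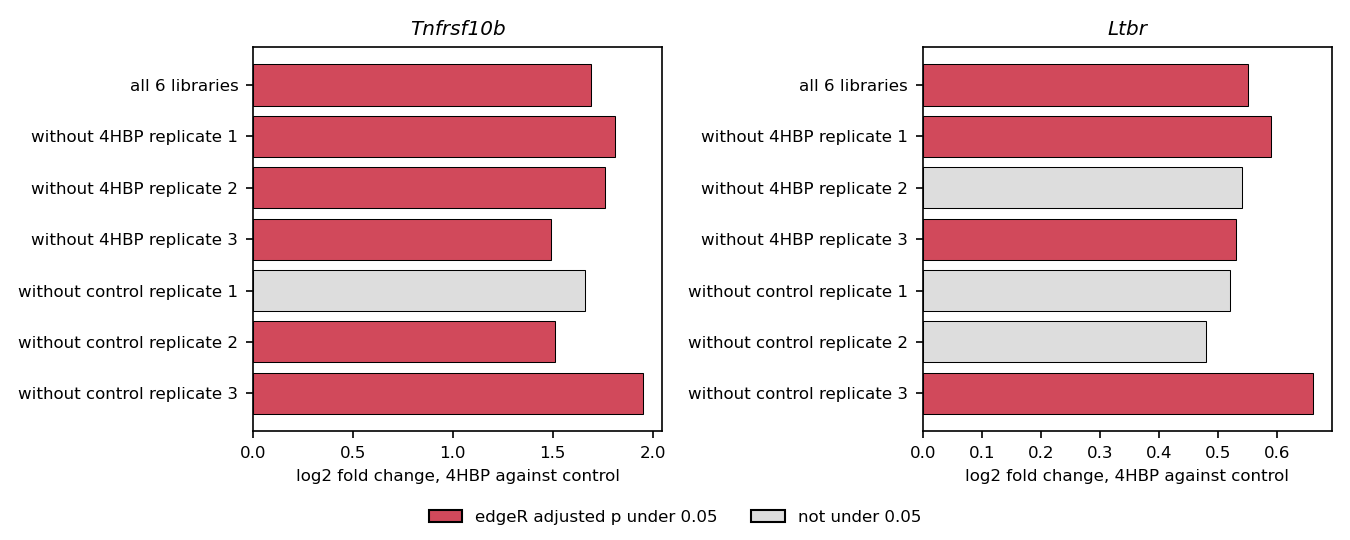
Log2 fold change of Tnfrsf10b and Ltbr with 4HBP in proliferation medium, with all 6 libraries and with each library left out, as bars from 0 coloured by the edgeR adjusted p. The values lay between 1.49 and 1.95 for Tnfrsf10b and between 0.48 and 0.66 for Ltbr, while the adjusted p crossed 0.05 in 1 and 3 of the 6 cases.

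Tnfrsf19 encodes an orphan receptor of the nervous system that, like Ngfr, can join the Nogo receptor complex. Tnfrsf19 measured 41.2, 42.2 and 37.5 CPM in the controls and 45.1, 50.8 and 70.3 CPM with 4HBP. The groups were apart, but the spread with 4HBP was wide because of replicate 3. Its log2 fold change was 0.46 (SE 0.15, 95% interval 0.12 to 0.79) and did not pass the test (edgeR adjusted p = 0.0961), and without 4HBP replicate 3 it was 0.25 (edgeR adjusted p = 0.108). It passed with an edgeR adjusted p of 0.0496 when 4HBP replicate 1 was left out (0.58). Tnfrsf21 had controls of 136, 138 and 139 CPM and 154, 144 and 146 CPM with 4HBP. The groups were again apart, and the difference was small (log2 fold change 0.10, SE 0.06, edgeR adjusted p = 0.368). In all, 4 of the 8 members had groups that did not overlap, as had 31.3% of all genes tested.

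Among the members without a call, Tnfrsf1a measured 165, 156 and 201 CPM in the controls and 226, 197 and 182 CPM with 4HBP. Tnfrsf12a measured 10.3, 10.5 and 17.0 CPM in the controls and 16.7, 16.7 and 11 CPM with 4HBP. In both genes, replicate 3 was the highest control and the lowest library with 4HBP, and the groups overlapped. Their log2 fold changes were 0.21 (95% interval -0.04 to 0.47, edgeR adjusted p = 0.278) and 0.23 (95% interval -0.28 to 0.74, edgeR adjusted p = 0.582). When replicate 3 of both groups was left out, an alternative chosen after the values were seen, both passed the test, with log2 fold changes of 0.40 for Tnfrsf1a (edgeR adjusted p = 0.00632) and 0.68 for Tnfrsf12a (edgeR adjusted p = 0.00354), and 4 members were called.

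Fas, whose product is the receptor of Fas ligand, measured 8.10, 8.29 and 12.5 CPM in the controls and 9.26, 9.29 and 14.1 CPM with 4HBP. In both groups replicate 3 was the highest. The log2 fold change was 0.18 (SE 0.22, 95% interval -0.32 to 0.68, edgeR adjusted p = 0.675), and it was -0.05 without 4HBP replicate 3. Ngfr ranged from 0.345 to 1.98 CPM in the controls and from 0.234 to 0.637 CPM with 4HBP, so that the groups overlapped (log2 fold change -1.21, SE 0.62, 95% interval -2.61 to 0.19, edgeR adjusted p = 0.265). Without control replicate 3, which held 40 counts, the log2 fold change of Ngfr was -0.44. Control replicate 3 was the highest control in 7 of the 8 tested members.

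**Figure D3:**
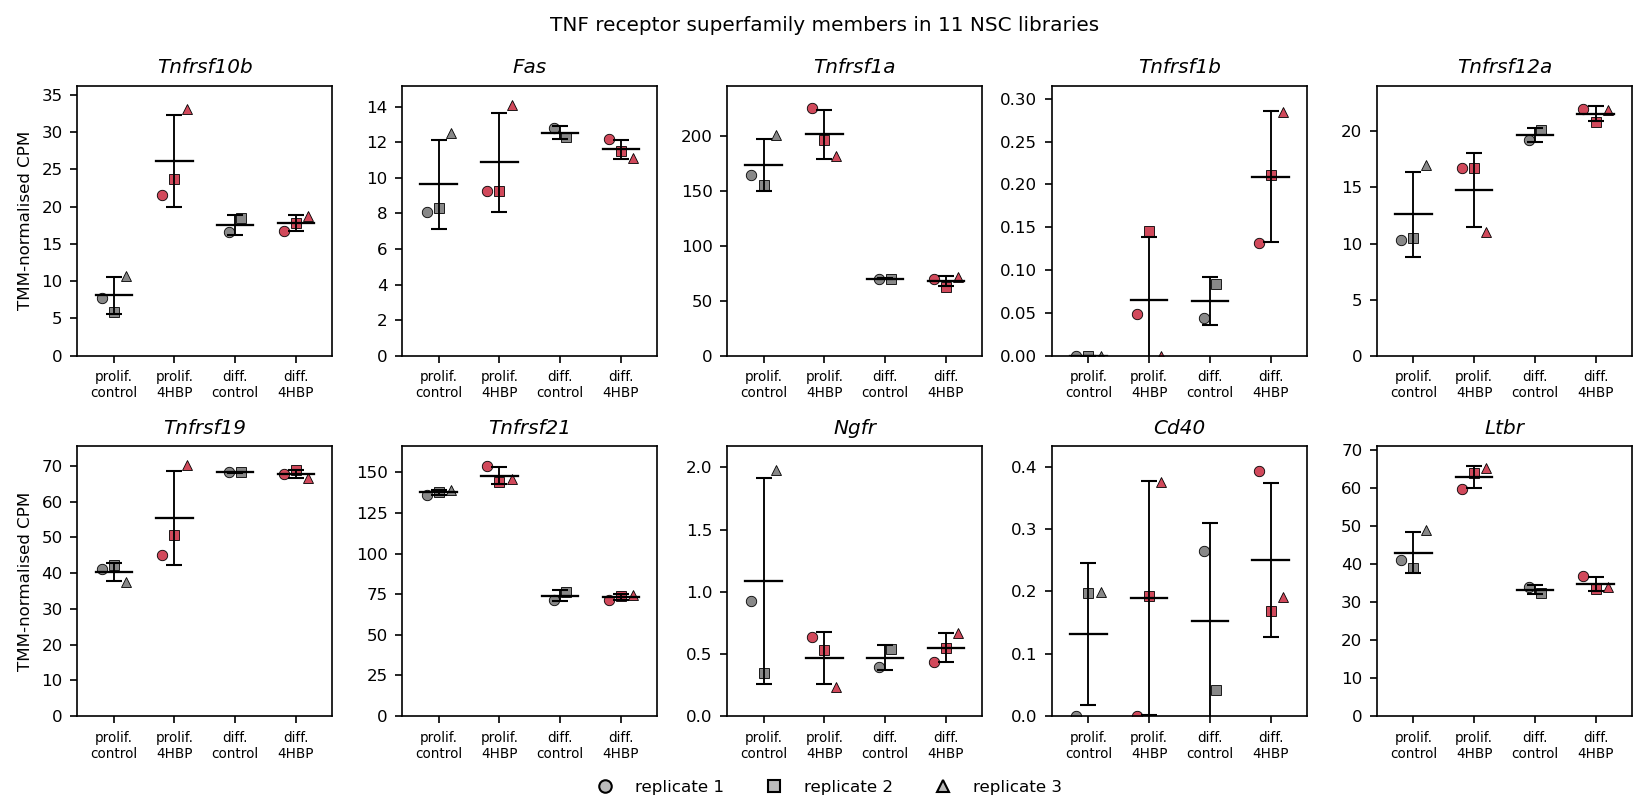
TMM-normalised CPM of the 10 receptor genes in 11 libraries, with a panel for each gene and symbols for the replicate number. Horizontal lines are group means and error bars are SDs (n = 3, or 2 in differentiation controls), and Tnfrsf10b and Ltbr are the genes whose 4HBP libraries stood above the controls in proliferation medium and passed the test.

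In differentiation medium no member was called by edgeR, where 2.55% of all 15484 genes tested were called, and none had an unadjusted p under 0.05. DESeq2 and limma also called 0 of the members. Tnfrsf10b measured 16.6 and 18.5 CPM in the controls and 16.7, 17.8 and 18.8 CPM with 4HBP, with ranges that overlapped (log2 fold change 0.01, SE 0.08, 95% interval -0.17 to 0.18, edgeR adjusted p = 0.975). Ltbr measured 34.0 and 32.4 CPM in the controls and 36.7, 33.4 and 33.8 CPM with 4HBP (log2 fold change 0.05, SE 0.06, 95% interval -0.08 to 0.18, edgeR adjusted p = 0.745). Both intervals end below those of the changes in proliferation medium.

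The groups of 2 members did not overlap in differentiation medium, as in 32.9% of all genes tested. Tnfrsf12a had 19.2 and 20.1 CPM in the controls and 22.0, 20.8 and 21.9 CPM with 4HBP (log2 fold change 0.13, SE 0.07, edgeR adjusted p = 0.405). Fas was slightly lower with 4HBP, at 12.2, 11.5 and 11.1 CPM against 12.8 and 12.3 CPM (log2 fold change -0.12, SE 0.09, edgeR adjusted p = 0.574). For Tnfrsf1a, Tnfrsf19 and Tnfrsf21 the log2 fold changes were -0.05, -0.02 and -0.03, with 95% intervals within -0.16 and 0.07. The interval of Ngfr was wide, from -0.74 to 1.16, at its low counts.

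**Figure D4:**
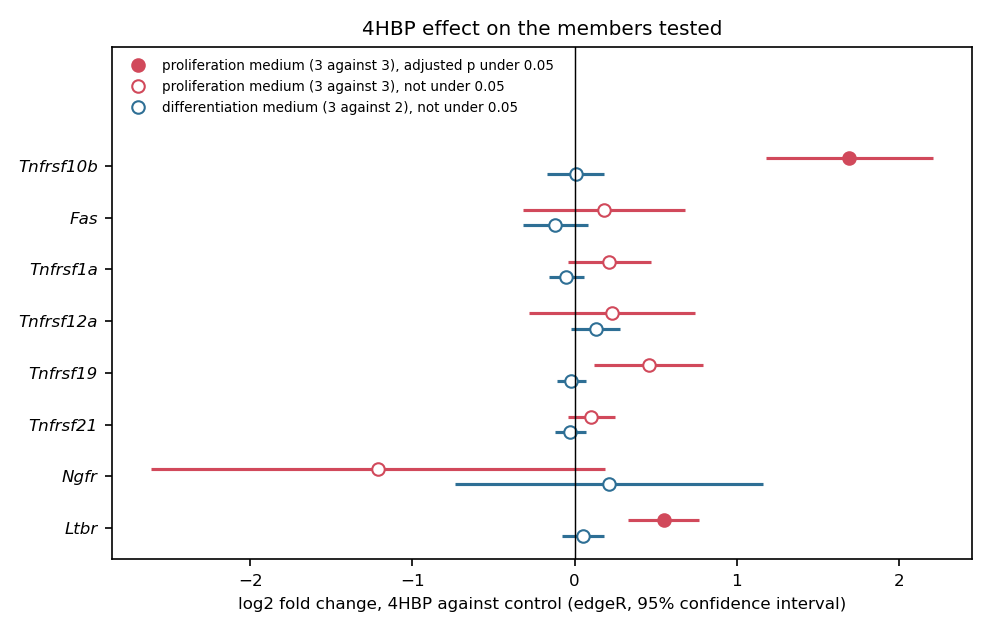
Log2 fold change of the 8 tested receptor genes with 4HBP against control, with 95% confidence intervals from edgeR, in proliferation medium (red, 3 against 3 libraries) and differentiation medium (blue, 3 against 2). Filled points passed an adjusted p of 0.05, which only Tnfrsf10b (1.69) and Ltbr (0.55) in proliferation medium did.

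The effect of 4HBP was then compared between media by an interaction term, counted as the log2 effect in differentiation medium minus that in proliferation medium. Tnfrsf10b and Ltbr passed this test, which makes 2 of 8 members where 4.49% of all 15920 genes tested were called and 2.01% had a difference below 0 that was called. The difference was -1.68 for Tnfrsf10b (SE 0.28, 95% interval -2.28 to -1.07, edgeR adjusted p = 0.00767) and -0.49 for Ltbr (SE 0.12, 95% interval -0.76 to -0.22, edgeR adjusted p = 0.0445). The call of Tnfrsf10b was lost without differentiation control replicate 2 (-1.59, edgeR adjusted p = 0.0504). That of Ltbr was lost in 8 of the 11 fits with 1 library left out, with values between -0.60 and -0.42 and an edgeR adjusted p of up to 0.208. It was kept only without 4HBP replicate 1, 4HBP replicate 3 or control replicate 3 of proliferation medium. For Tnfrsf19 the difference was -0.47 (SE 0.18, edgeR adjusted p = 0.178), and it passed without 4HBP replicate 1 of proliferation medium (-0.60, edgeR adjusted p = 0.0431).

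Between media, the controls show how the family differs between dividing and differentiating cultures. Here 6 of 8 members were called, where 61.4% of all genes tested were. Tnfrsf1a fell most, from between 156 and 201 CPM to 70.3 and 69.9 CPM (log2 fold change -1.31, SE 0.11, edgeR adjusted p = 6.4e-07). Tnfrsf21, a receptor known from axon pruning, fell from between 136 and 139 CPM to 71.6 and 76.5 CPM (log2 fold change -0.90, SE 0.06, edgeR adjusted p = 5.5e-08). Ltbr fell by 0.37 on the log2 scale (edgeR adjusted p = 0.00419).

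In the other direction, Tnfrsf10b rose from between 5.82 and 10.7 CPM to 16.6 and 18.5 CPM (log2 fold change 1.12, SE 0.21, edgeR adjusted p = 5.5e-04). Tnfrsf19 rose from between 37.5 and 42.2 CPM to 68.3 and 68.2 CPM (log2 fold change 0.76, SE 0.14, edgeR adjusted p = 3.4e-04). Tnfrsf12a rose by 0.64 (SE 0.20, edgeR adjusted p = 0.0153), but its call was lost without proliferation control replicate 1 (0.51, edgeR adjusted p = 0.0611) or 2 (0.53, 0.0567) and without differentiation control replicate 1 (0.68, 0.056) or 2 (0.62, 0.0803). Fas (0.38, edgeR adjusted p = 0.119) and Ngfr (-1.19, edgeR adjusted p = 0.111) did not pass with all libraries, and passed without proliferation control replicate 3 (Fas, 0.62, edgeR adjusted p = 0.0137) or 2 (Ngfr, -1.62, 0.0175).

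Under 4HBP, 5 of 8 members were called between media, where 67.2% of all genes tested were. Tnfrsf1a (-1.57), Tnfrsf21 (-1.02) and Ltbr (-0.86) fell, with edgeR adjusted p-values of 2.6e-08, 3.4e-09 and 1.1e-06. Tnfrsf10b was lower in differentiation medium here (-0.56, SE 0.18, edgeR adjusted p = 0.015), whereas it was higher there in the controls. This call was lost without proliferation 4HBP replicate 3 (-0.35, edgeR adjusted p = 0.0542) or differentiation 4HBP replicate 1 (-0.51, edgeR adjusted p = 0.0549). Tnfrsf12a rose by 0.54 (edgeR adjusted p = 0.0177), which was lost without proliferation 4HBP replicate 3 (0.36, edgeR adjusted p = 0.0533). Tnfrsf19 had a log2 fold change of 0.29 (edgeR adjusted p = 0.0505), and it passed without that same library (0.49, edgeR adjusted p = 1.7e-05). The comparisons between media and those between treatments use the same libraries, so their values are set side by side and not as independent results.

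The length that RSEM gives a gene, weighted by the abundance of its transcripts, differed between media for Tnfrsf1a. It was between 1509 and 1609 bases in proliferation medium and between 1855 and 2028 bases in differentiation medium, over 6 annotated transcripts. The ranges in the media were apart, which is given as a description without a test. For Tnfrsf10b it was between 3132 and 3171 bases in proliferation medium and between 3102 and 3165 bases in differentiation medium. The ranges of Fas were also apart, with 1447 to 1486 bases in proliferation medium and 1380 to 1429 bases in differentiation medium. So were those of Cd40 (668 to 1112 and 2119 to 2986 bases), which rested on few reads.

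Around these receptors, the other genes of the pathway were counted by list in proliferation medium, where 7.43% of all genes tested were called and 3.74% were called higher. With limma and adjusted p, no gene of any of the 7 lists was called. Of 18 other TNF receptor superfamily genes, 5 were tested and Eda2r, the receptor of ectodysplasin A2, rose (log2 fold change 1.17, SE 0.20, edgeR adjusted p = 0.0131). Of 22 ligands, 6 were tested, and the neurotrophin gene Bdnf, whose precursor protein binds the p75 receptor, rose (1.06, SE 0.24, edgeR adjusted p = 0.0326). The medians of these lists were 0.30 and 0.13 on the log2 scale, against 0.00 over all genes tested. The ligands of the members themselves, looked up after the values were seen, were low. Fasl had 0 or 1 counts and Tnfsf10 (TRAIL) between 1 and 9 counts in proliferation medium. Tnf had between 10 and 23 counts in proliferation medium and 0 in all 5 differentiation libraries, where up to 3 counts per library remain possible.

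Inside the cell, 1 of 20 tested adaptor and TRAF ubiquitin genes rose, which was Rbck1, a subunit of the linear ubiquitin ligase (0.43, SE 0.11, edgeR adjusted p = 0.0405; list median 0.01). Of 11 tested caspases and inhibitors of the death pathway, Bid, which links death receptors to mitochondria, rose (0.85, SE 0.19, edgeR adjusted p = 0.032; list median 0.09). Single calls in lists of this size are near the share called over all genes. Of 13 NFκB subunits and feedback genes, 4 rose, and the list median was 0.17. These were Relb (0.88, edgeR adjusted p = 0.0196) and Nfkb2 (0.64, edgeR adjusted p = 0.03), which encode the subunits of the alternative pathway, and the inhibitor genes Nfkbie (0.66, edgeR adjusted p = 0.0384) and Nfkbia (0.56, edgeR adjusted p = 0.0467). No gene of these 5 lists fell. Without control replicate 1 or control replicate 2 none of their genes was called, and without 4HBP replicate 2 only 1, among the other receptors, was. The NFκB count was 2 without 4HBP replicate 3, 4HBP replicate 1 or control replicate 3, and the Rbck1 list had no call without control replicate 3. Over all genes, 107 were called without control replicate 1, 137 without control replicate 2 and 290 without 4HBP replicate 2, against 1074 with all 6 libraries.

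Tnfrsf10b is a known target gene of the stress factor CHOP and of p53, so a list of regulators and targets of ATF4, CHOP and p53 was set beside it. This list, like the others, was chosen with earlier results of these data known, so its count is a description. Of its 10 genes, 7 rose and none fell by edgeR, where 3.74% of all genes tested were called higher. The median log2 fold change of the 10 was 0.64, whereas limma with adjusted p called 0 of them. Cdkn1a, which encodes the cell cycle inhibitor p21, had a mean of 125.9 ± 25.66 CPM without the compound and 334.2 ± 60.48 CPM under it (SD, n = 3; log2 fold change 1.41, SE 0.16, edgeR adjusted p = 0.00419). Trib3, a pseudokinase gene induced by ER stress, changed by 1.79 (SE 0.38, edgeR adjusted p = 0.027), and Pmaip1, which encodes the BH3-only protein Noxa, by 1.54 (SE 0.26, edgeR adjusted p = 0.0133). Ccng1 changed by 0.68 (SE 0.13, edgeR adjusted p = 0.0179), and Atf4, Mdm2 and Trp53 were the others. Ddit3, which encodes CHOP, had a log2 fold change of 1.00 that did not pass (SE 0.33, edgeR adjusted p = 0.0991), and its count is uncertain because another annotated locus overlaps it. The count was 7 without 4HBP replicate 3, but 1 without control replicate 1 or without control replicate 2 and 4 without 4HBP replicate 2, with list medians between 0.57 and 0.76 when any library was left out. The part of ATF4, CHOP or p53 in the rise of Tnfrsf10b was not tested.

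**Figure D5:**
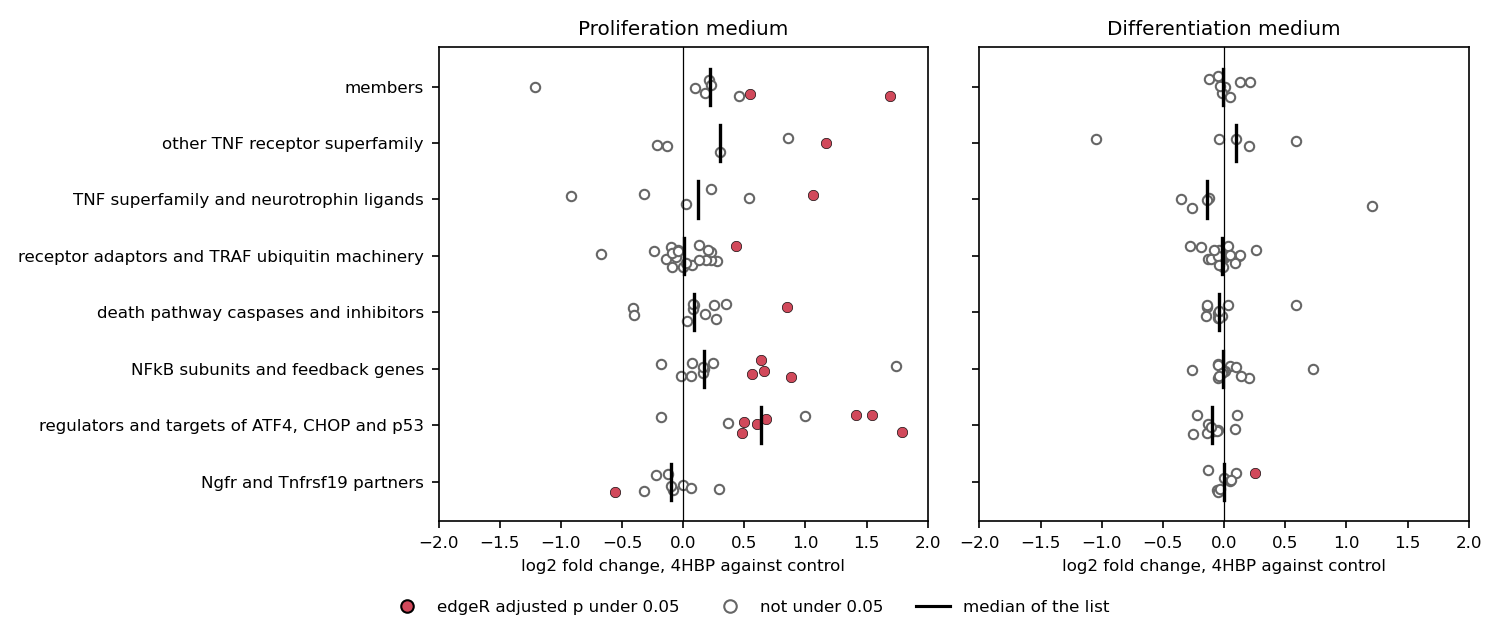
Log2 fold change with 4HBP against control for the 8 tested receptor genes and 7 lists of pathway genes, in proliferation medium (left) and differentiation medium (right), with a point per gene, filled where the edgeR adjusted p was under 0.05, and a line at each list's median. In proliferation medium 7 of 10 regulators and targets of ATF4, CHOP and p53 passed, and in differentiation medium Lingo1 alone passed.

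Among 9 tested partners of Ngfr and Tnfrsf19, Lingo1, which joins either receptor in the Nogo receptor complex, fell in proliferation medium (log2 fold change -0.56, SE 0.13, edgeR adjusted p = 0.0344). The list had no call without 4HBP replicate 1 or 2 or control replicate 1 or 2. In differentiation medium Lingo1 rose (0.25, SE 0.05, edgeR adjusted p = 0.0218). No other gene of the 7 lists was called in differentiation medium.

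Astrocyte markers moved with the treatment in proliferation medium. Of 6 astrocyte markers, 4 fell with 4HBP, where 7.43% of all genes tested were called in either direction. The summed level of the 6 was between 3179 and 3709 CPM with 4HBP and between 4733 and 5846 CPM in the controls. In differentiation medium the sum was between 4988 and 5320 CPM in all 5 libraries. Of the 8 oligodendrocyte lineage markers none was called, with sums between 2125 and 3551 CPM with 4HBP and between 3366 and 4002 CPM in the controls, and of the 8 neuron and 10 NSC markers none was called. The astrocyte count was 0 with limma and adjusted p, 5 without 4HBP replicate 3, 2 without 4HBP replicate 2 and 0 without control replicate 1 or 2, with list medians between -0.73 and -0.56. Endothelial markers summed to between 3.08 and 21.4 CPM and fibroblast and mural markers to between 6.61 and 33.5 CPM over all libraries. The part of these cell types in the changes of Tnfrsf10b, Ltbr and the pathway genes was not tested.

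The genes most like the members over the 11 libraries were found by the Euclidean distance between centred log2 CPM profiles. For Tnfrsf10b they were Cdkn1a (distance 0.477), Atf5 (0.589) and Cpeb1 (0.608), where the median distance over all genes was 2.56 and a flat profile lay at 2.28. For Tnfrsf19 they were Calcrl (0.249), Afap1l2 (0.252) and Cry1 (0.276), with a median of 1.6 and a flat profile at 1.14. For Tnfrsf12a they were Slc29a2 (0.407), Lypd6 (0.467) and Id3 (0.498), with a median of 1.76 and a flat profile at 1.34. For Fas they were Rassf1 (0.39), Arid5a (0.418) and Aaed1 (0.43), with a median of 1.41 and a flat profile at only 0.854. The profile of Ngfr, with its low counts, was less closely matched, by Gfpt2 (1.12), St6galnac5 (1.25) and Pak6 (1.28). Its median was 2.47, and a flat profile lay at 2.21. These distances describe the same 11 libraries that the comparisons use and carry no test.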

How the data were processed

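RNA of mouse hippocampal NSCs was measured in 11 stranded, poly(A)-selected libraries, placed in 4 groups by their labels. The authors trimmed the reads with cutadapt and quantified them with RSEM 1.3.0 and Bowtie2 2.2.9 on mm10 (GRCm38) with GENCODE genes. The deposited expected counts are RSEM's unnormalised estimates per gene, which share out fragments of multiple origin (18.6% of the values above 0 were not whole). The deposited TPM values are scaled by RSEM for transcript length and depth, and were used only for levels between genes. The deposited FPKM values were not analysed.

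Expected counts were rounded, filtered by filterByExpr, scaled by TMM and tested with edgeR 4.0.16 (R 4.3.3) by glmQLFit and glmQLFTest, with Benjamini-Hochberg adjustment over all genes tested. Effects of 4HBP were fitted within each medium, because the spread differed, and comparisons between media and the interaction in 1 fit of 11 libraries. The study used limma on log2(CPM + 1) at thresholds of 0.05 for the unadjusted p and 0.58 for the size of the log2 fold change. This was run as an alternative with limma 3.58.1, as were DESeq2 1.42.0, voom, other filters and scalings, a block for the replicate number and fits without each library. Gene names came from GENCODE vM21 by identifier (99.7% matched). In simulated counts with 200 genes changed 2-fold, 84% were recovered for proliferation medium (14449 genes) and 85% for differentiation medium (15484 genes). Of the unchanged genes, 12 and 7 were called. The counts were drawn from the fitted dispersion with no library set apart, so these shares do not cover a deviating library such as 4HBP replicate 3.

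The members and lists were chosen with earlier results of these data known. Named were all members, the called genes of each pathway list (at most 4 per list and direction with values) and the 3 genes nearest in profile to 5 members. No libraries were found to be duplicates. Totals lay between 20822921 and 23438463 expected counts.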

Additional observations from a re-analysis of the deposited data

Results flagged for a closer look

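For each of the following genes, the effect of 4HBP differed between the media by the interaction term in edgeR (log2 effect in differentiation medium minus that in proliferation medium, Benjamini-Hochberg adjusted over all genes tested). Among the receptors, the difference was -1.68 for Tnfrsf10b (SE 0.28, adjusted p = 0.00767) and -0.49 for Ltbr (SE 0.12, adjusted p = 0.0445). Eda2r differed by -1.20 (SE 0.26, adjusted p = 0.0209). Bdnf differed by -1.31 (SE 0.29, adjusted p = 0.0258). Pmaip1 differed by -1.78 (SE 0.31, adjusted p = 0.00942). Cdkn1a differed by -1.46 (SE 0.20, adjusted p = 0.00297). Ccng1 differed by -0.78 (SE 0.16, adjusted p = 0.0187). Lingo1 differed in the opposite direction, by 0.82 (SE 0.15, adjusted p = 0.0109). Of the 10 regulators and targets of ATF4, CHOP and p53, 5 passed this test with a negative difference, as did 2.01% of all genes tested. Of the 6 astrocyte markers, 3 passed with a positive difference (median of the 6, 0.67), where 4.49% of all genes tested passed in either direction. The part of these markers in the other differences was not tested. The groups of 2 and 3 libraries were too small for a test of single outlying libraries.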

How the results depend on the processing

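Of 568 member values recomputed under other settings, 506 kept their direction and side of the threshold, 19 newly passed, 31 no longer passed and 12 changed sign. In proliferation medium, 2 members were called, against 0 with limma and adjusted p, 1 by the study's thresholds (Tnfrsf10b), 0 to 3 with a library left out, and 4 without replicate 3 of both groups (added after seeing the data). The limma values of Tnfrsf10b and Ltbr were 1.62 (adjusted p = 0.127) and 0.58 (adjusted p = 0.136). Tnfrsf19 also passed with DESeq2 (0.0377), without a filter (0.0243) and with all 11 libraries in a single fit (0.0247). Between media under 4HBP, 5 were called, against 3 by the study's thresholds. For the interaction, 2 were called, against 0 with limma and adjusted p, 1 by the study's thresholds and 0 to 3 with a library left out. Among all genes, edgeR called 1074 in proliferation medium, against 1633 with DESeq2, 2668 with all libraries in a single fit, 67 with limma and adjusted p, 578 by the study's thresholds, 2573 without replicate 3 of both groups and 107 to 1429 with a library left out. In differentiation medium it called 395, against 778 without a filter, 0 with all libraries in a single fit, 0 and 49 with limma and 77 to 288 with a library left out. For the interaction it called 715, against 1086 with DESeq2, 1616 without a filter, 264 with limma and adjusted p and 124 to 1100 with a library left out. Between media the study's thresholds called 5219 in controls and 5697 under 4HBP, against 9771 and 10692. The cause of these differences was not tested.

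The values that changed sign had not been called. With a library left out, in proliferation medium Fas ranged from -0.05 to 0.41. In differentiation medium Tnfrsf10b ranged from -0.06 to 0.09, Tnfrsf1a from -0.09 to 0.00 and Tnfrsf21 from -0.07 to 0.02. Between media under 4HBP, Fas ranged from -0.02 to 0.32 and Ngfr from -0.10 to 0.51, and the interaction of Tnfrsf12a from -0.37 to 0.03.

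Same-numbered libraries did not deviate together (correlations from -0.0612 to 0.018), so the numbers are not taken as pairs. With the replicate block the calls in proliferation medium (2), differentiation medium (0), under 4HBP (5) and for the interaction (2) were equal in number, and 7 were called between media in controls, where Fas passed (0.53, adjusted p = 0.0205). The block turned Tnfrsf10b in differentiation medium to -0.03, and moved the genes called over all from 1074 to 534 in proliferation medium and from 395 to 745 in differentiation medium.

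Depth limits Tnfrsf1b and Cd40, which were not tested, and Ngfr, which had at most 40 counts. A fit without differentiation control replicate 1 or 2 leaves 1 control, which is assumed to vary like the other libraries.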
